A study of Mus musculus with 24 samples.

Results

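The expression of 10 genes of the immediate early and heat shock responses was followed through cultured cells, whole tumors and purified tumor cells of the mouse colon cancer line CT26. The genes were chosen by name, as 10 of the 35976 genes in the tables: Fos, Fosb, Jun, Junb, Jund, Egr1, Ier2, Dusp1, Hspa1a and Hspa1b. They are genes that tissue dissociation often induces, so the question was whether they stood higher in cells purified from tumors than in tumors taken whole or in cells from culture. They did not do so as a group over the lines together. Against tumors the lines differed. In the knockout line 7 members were called higher in purified cells, where 25.3% of all genes were, a count that leaned on single libraries. In control line 1, 2 members were called higher, where 23.7% of all genes were, and 3 lower, where 30.2% were. Fos, Fosb, Egr1, Ier2 and Dusp1 were highest in culture and several-fold lower in both tumors and purified cells, Jun was moderately higher in purified cells than in either of the other settings, and Hspa1b was low in culture and higher in purified cells and tumors.

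As background, immediate early genes are transcribed within minutes of a growth factor, serum or stress signal without new protein synthesis, largely through the MAP kinase pathway acting on factors already bound at their promoters. Fos and Fosb pair with the Jun proteins to form the transcription factor AP-1, Egr1 is a zinc finger factor, Ier2 is a small nuclear response protein, and Dusp1 is a phosphatase that switches MAP kinases off again. Hspa1a and Hspa1b encode the inducible Hsp70 chaperone, which refolds damaged proteins and is switched on by heat shock factor 1 when proteins misfold.

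Libraries came from 3 CT26 lines, a Sun1 knockout line (Sun1_KO) and the control lines Sun1_Control1 and Sun1_Control2, labelled wild type. Sun1 encodes a nuclear envelope protein that links the nucleus to the cytoskeleton. Cells purified from day 14 subcutaneous tumors with a tumor cell isolation kit gave 2 libraries of each line. Whole day 14 tumors grown in BALB/c mice gave 7 knockout and 8 control libraries, the control tumors all of line 1. Cells cultured in serum-containing RPMI gave 1 library per line. There was 1 knockout line, so genotype and line cannot be told apart, and the labels do not state the age of the mice, whether replicates are separate animals or how long passed between dissection and lysis. P-values therefore measure only the spread between these libraries. Whether groups overlap is described gene by gene, and the share of all genes without overlap was not counted.

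Expected counts summed to between 17068400 and 22593600 in purified libraries, between 14140800 and 24651300 in tumors and between 18832200 and 20716900 in culture. Levels are given as CPM, read counts divided by library totals that were scaled between the 24 libraries, and differences as log2 fold changes with a standard error (SE), tested in edgeR with an adjusted p under 0.05 as the threshold for a call. Sun1 itself stood lower in the knockout in every setting, at 50.9 and 55.5 CPM in purified knockout cells, against 165.5 to 214 CPM in purified control cells, at 33.7 CPM in cultured knockout cells, against 122.4 and 109.7 CPM in the cultured control lines, and at 50.5 to 64.8 CPM in knockout tumors, against 168.7 to 192.4 CPM in control tumors. Summed macrophage markers were 5.78 to 28.4 CPM in purified cells, against 743 to 2450 CPM in tumors and 6.21 to 7.02 CPM in culture, and summed leukocyte markers were 0.83 to 3.95 CPM in purified cells, against 131 to 438 CPM in tumors and 0.62 to 0.93 CPM in culture. All 6 macrophage and all 3 leukocyte markers were called lower in purified cells than in tumors. Summed fibroblast markers were 171 to 928 CPM in purified cells, 280 to 622 CPM in tumors and 77.5 to 84.9 CPM in culture. Of these 5 markers, 1 was called higher and 1 lower in purified cells than in tumors. Mitochondrial transcripts took 1.32% to 1.89% of the counts in purified cells, 2.56% to 5.28% in tumors and 1.64% to 2.07% in culture. Of the 9 colon epithelium markers, Epcam and Krt19 were at 0 in purified and cultured cells, and 3 averaged over 1 CPM in each. The summed list was 99.8 to 207 CPM in purified cells, 116 to 224 CPM in culture and 40.2 to 180 CPM in tumors. The purified knockout libraries stood apart from each other in several members, with replicate 2 at 2.55 times the CPM of replicate 1 in Fos, 2.497 times in Fosb and 3.27 times in Hspa1b, and with 18 counts of Hspa1a, against 1 in replicate 1, so results that rest on replicate 2 are given with and without it.

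Promoter sequence was taken from RefSeq for the build of the files (GRCm38.p6, mm10), which matched 8 of the 10 members, all but Egr1 and Ier2. The 250 bases before the start were searched on both strands for the half-site TGACG of the cAMP response element, which CREB and ATF factors bind, and for GAANNTTC, a pair of the inverted repeats that heat shock factors bind. TGACG was found before Fos, Fosb, Junb and Dusp1, and in 17.8% of 32851 promoters of the same length. GAANNTTC was found before Jun, Hspa1a and Hspa1b, and in 6.69% of promoters. The AP-1 site TGANTCA (6.75% of promoters) and the CArG box of serum response factor (1.47%) were found before none of the 8. TATAAA (12.4%) was found before Fos, and CCAAT (33.8%) before Jun, Junb, Hspa1a and Hspa1b. A missing match says only that these letters are not in this window. Fos and Dusp1, which were lower in purified cells and tumors than in culture, and the Hsp70 pair, in which Hspa1b was higher, are shown 5′ to 3′ in the direction of the gene, with matches in capitals.
Fos, chr12:85473640-85473889, plus strand, with 2 matches of TGACG in capitals: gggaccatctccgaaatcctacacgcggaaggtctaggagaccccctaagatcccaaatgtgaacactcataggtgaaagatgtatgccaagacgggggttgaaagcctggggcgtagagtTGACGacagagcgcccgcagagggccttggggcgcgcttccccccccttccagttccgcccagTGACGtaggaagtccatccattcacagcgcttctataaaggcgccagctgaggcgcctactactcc
Dusp1, chr17:26508473-26508722, minus strand, with 3 matches of TGACG, of which a pair overlaps on opposite strands in TGACGTCA: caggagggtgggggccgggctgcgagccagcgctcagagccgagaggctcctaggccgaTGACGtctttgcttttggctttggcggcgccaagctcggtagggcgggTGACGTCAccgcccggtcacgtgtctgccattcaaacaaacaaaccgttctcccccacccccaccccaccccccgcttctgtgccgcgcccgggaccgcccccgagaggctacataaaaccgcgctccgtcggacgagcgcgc
Hspa1a, chr17:34972157-34972406, minus strand, with 1 match of GAANNTTC: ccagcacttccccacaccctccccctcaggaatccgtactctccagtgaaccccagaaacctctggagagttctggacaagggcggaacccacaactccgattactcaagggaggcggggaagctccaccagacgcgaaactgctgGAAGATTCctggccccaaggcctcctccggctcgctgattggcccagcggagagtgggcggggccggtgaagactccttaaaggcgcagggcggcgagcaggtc
Hspa1b, chr17:34959239-34959488, minus strand, with 1 match of GAANNTTC: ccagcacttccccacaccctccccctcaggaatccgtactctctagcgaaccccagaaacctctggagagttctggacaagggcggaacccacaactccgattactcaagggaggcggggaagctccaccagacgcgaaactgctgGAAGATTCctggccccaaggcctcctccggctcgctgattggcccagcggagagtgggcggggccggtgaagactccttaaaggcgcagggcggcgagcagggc
The Hsp70 promoters differed at 3 of 250 bases. Of the Hspa1a transcript, 38.1% of the 150-base windows and 18.7% of the 300-base windows were found whole in Hspa1b (GENCODE vM21). The division of reads between these copies is therefore uncertain.

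**Figure D1:**
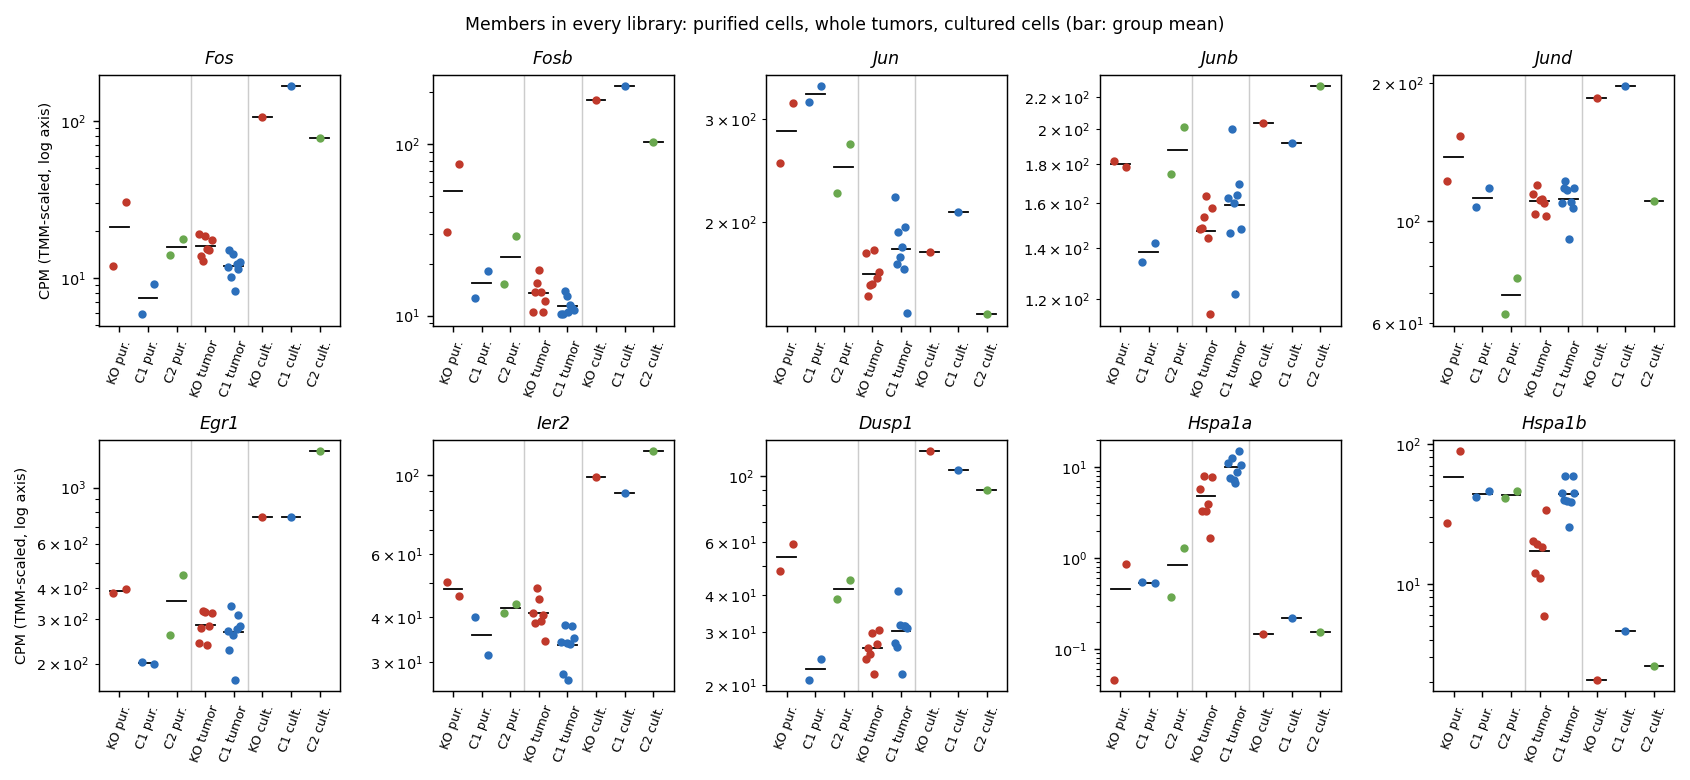
CPM on a log axis for each member in every library, with purified cells, whole tumors and cultured cells from left to right, knockout in red, control line 1 (C1) in blue and control line 2 (C2) in green, and a bar at the group mean. The cultured libraries stand above all others in Fos, Fosb, Egr1, Ier2 and Dusp1 and below all others in Hspa1b.

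In purified cells against whole tumors of the same lines, Fosb, Jun and Hspa1b were higher, Hspa1a was lower, and the other 6 members did not pass the test. The purified side holds 4 libraries and the tumor side 15, with the line as a term in the fit. Calls in this comparison were common: 31.1% of 14397 genes tested were called higher and 34.1% lower, so 3 members higher and 1 lower is no larger a share than that of all genes. In these bulk samples fewer cells of a type and less RNA per cell cannot be told apart. The tumor values include RNA of host cells whose macrophage and leukocyte markers are given above.

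Jun, the AP-1 subunit with the strongest transactivating role, gave the most even difference. Purified knockout cells had 252.5 and 319.7 CPM, against 149 to 179 CPM with a median of 159.9 in knockout tumors. Purified cells of control line 1 had 321.2 and 342.5 CPM, against 139.5 to 221 CPM with a median of 177.5 in control tumors. Every purified library lay above every tumor library, and Jun was 1.79-fold higher (log2 fold change 0.84, SE 0.08, adjusted p = 2.23e-09 in edgeR), with log2 values of 0.76 to 0.88 over all alternatives.

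Fosb, a Fos family partner of Jun, had 30.5 and 76.1 CPM in purified knockout cells, against 10.5 to 18.5 CPM in knockout tumors. In purified cells of control line 1 it had 12.7 and 18.2 CPM, against 10.2 to 13.9 CPM in control tumors. The knockout groups did not overlap and the control groups did, and over both lines Fosb was 2.5-fold higher (log2 1.32, SE 0.24, adjusted p = 8.67e-05 in edgeR). Without purified knockout replicate 2 the log2 difference of Fosb was 0.70. Fos itself had 11.98 and 30.5 CPM in purified knockout cells, against 12.9 to 19.0 CPM with a median of 15.3 in knockout tumors. It had 5.88 and 9.16 CPM in purified cells of control line 1, against 8.27 to 15.1 CPM with a median of 12.02 in control tumors. The groups overlapped in both lines, and the log2 difference of −0.07 (SE 0.22, adjusted p = 0.80 in edgeR) did not pass. Without purified knockout replicate 2, Fos was called lower, at −0.61 (adjusted p = 0.00255).

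Junb, an AP-1 subunit induced with Fos, and Jund, the subunit expressed most steadily in resting cells, differed little. Junb had 181.7 and 178.6 CPM in purified knockout cells, against 114.6 to 163.7 CPM in knockout tumors, and 134.1 and 142.1 CPM in purified cells of control line 1, against 121.8 to 199.9 CPM in control tumors. Jund had 122.5 and 153.1 CPM in purified knockout cells, against 102.5 to 119.9 CPM in knockout tumors, and 107.4 and 118.0 CPM in purified cells of control line 1, against 91.7 to 122.6 CPM in control tumors. For both genes the knockout groups were apart and the control groups overlapped. Over both lines the log2 differences were 0.04 for Junb and 0.16 for Jund, neither past the threshold (adjusted p = 0.720 and 0.0644 in edgeR). Jund was called higher without purified control line 1 replicate 1 (0.22, adjusted p = 0.0240) or without control tumor replicate 3 or 4 (0.17, adjusted p = 0.0499 and 0.0474).

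Egr1, Ier2 and Dusp1 were also not called over both lines. Egr1 had 380.5 and 394.9 CPM in purified knockout cells, against 236 to 324 CPM in knockout tumors, and 202.1 and 198.6 CPM in purified cells of control line 1, against 172.6 to 338 CPM in control tumors. Dusp1 had 48.0 and 59.2 CPM in purified knockout cells, against 21.7 to 30.4 CPM in knockout tumors, and 20.8 and 24.5 CPM in purified cells of control line 1, against 21.7 to 41.2 CPM in control tumors. In both genes the knockout libraries from purified cells stood above their tumors, while those of the control line lay within their tumor range for Egr1 and near its lower end for Dusp1. Ier2 had 50.2 and 46.0 CPM in purified knockout cells, against 34.4 to 48.2 CPM in knockout tumors, and 40.1 and 31.5 CPM in purified cells of control line 1, against 26.8 to 38.2 CPM in control tumors, and the groups overlapped in both lines. The log2 differences were 0.04 for Egr1, 0.16 for Ier2 and 0.39 for Dusp1 (adjusted p = 0.844, 0.133 and 0.0994 in edgeR). Dusp1 was called higher without purified control line 1 replicate 1 or 2 (0.61 and 0.58, adjusted p = 0.00881 and 0.0248) and in a single fit of all 24 libraries (0.27, adjusted p = 0.0288), and Ier2 without replicate 2 of that group (0.24, adjusted p = 0.0368).

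Of the Hsp70 genes, Hspa1a was called lower and Hspa1b higher over both lines. In control line 1 alone Hspa1b did not differ past the threshold (log2 −0.03, adjusted p = 0.935 in edgeR). Hspa1a had 0.0459 and 0.871 CPM in purified knockout cells and 0.545 and 0.529 CPM in purified cells of control line 1, from 1 to 18 counts a library. It had 1.67 to 8.09 CPM in knockout tumors and 6.76 to 15.01 CPM in control tumors. No purified library reached the lowest tumor, and Hspa1a was 14.2-fold lower (log2 −3.83, SE 0.49, adjusted p = 8.51e-07 in edgeR), and stood at −4.56 without purified knockout replicate 2. Hspa1b had 27.1 and 88.6 CPM in purified knockout cells, against 5.89 to 33.5 CPM in knockout tumors, and 41.9 and 46.2 CPM in purified cells of control line 1, against 25.4 to 59.1 CPM in control tumors. Both lines overlapped, and the call of Hspa1b as higher (log2 0.98, SE 0.38, adjusted p = 0.0313) was lost without purified knockout replicate 2 (0.21, adjusted p = 0.591), without knockout tumor replicate 2 (0.91, adjusted p = 0.0502) and with the counts of Hspa1a and Hspa1b summed (0.66, adjusted p = 0.141).

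**Figure D2:**
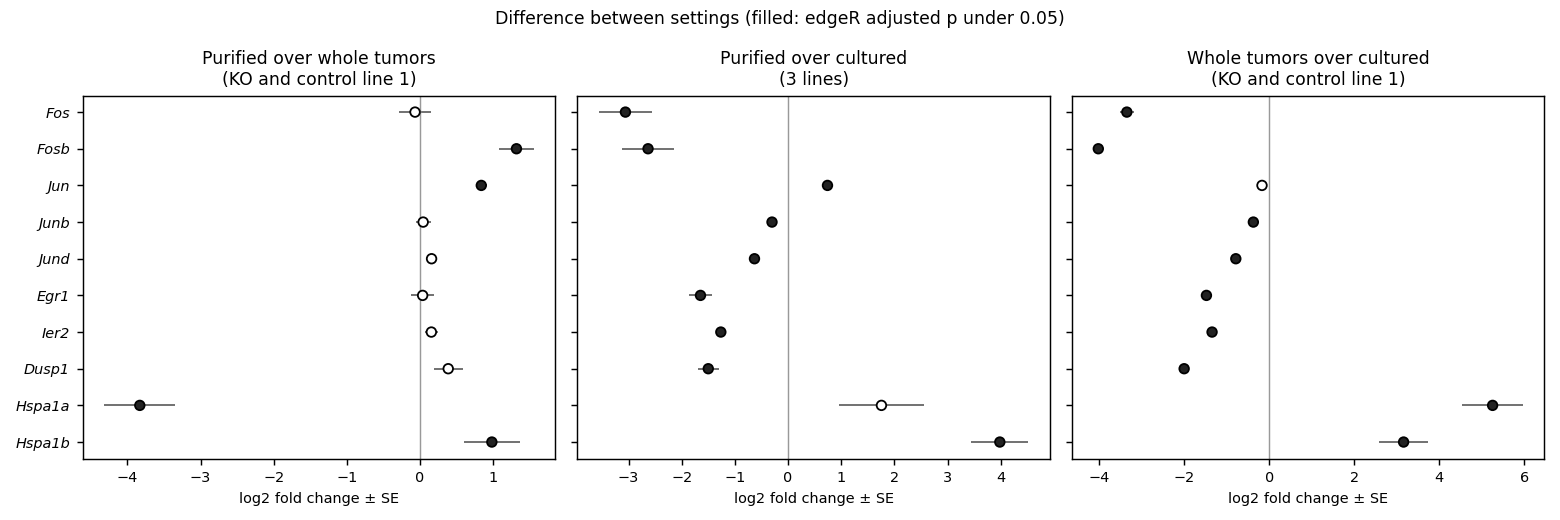
Log2 fold change with SE for each member between settings, purified over tumors, purified over cultured and tumors over cultured, with filled points where the edgeR adjusted p is under 0.05. In the middle and right panels 7 members lie below 0 and filled, and Hspa1b lies above 0 and filled in all 3 panels.

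Lists of related genes spread in both directions between purified cells and tumors. Among all genes 31.1% were called higher and 34.1% lower in this comparison. Of 34 other immediate early genes, 9 were higher and 17 lower, with a median log2 difference of −0.21, against −0.04 over all genes. Atf3, a stress-induced repressor of the ATF family, had 6 counts over the 4 purified libraries and 3305 over the 15 tumors, Gem, a small GTPase, had 13 and 2912, and Nr4a3, an orphan nuclear receptor, had 22 and 1108. In culture Atf3 had 0.246, 0.0548 and 1.65 CPM in the knockout, control line 1 and control line 2, and the part of host cells in the tumor levels of these 3 genes was not tested. Ier5, Fosl1 and Rhob were the clearest among those higher, at log2 0.38, 0.51 and 0.33. Of 15 genes of the MAP kinase feedback circuit, 4 were higher, among them Dusp7 at 0.50 and Spred2 at 0.37, and 4 lower, among them Dusp10 at −0.47. Spry1, an inhibitor of receptor tyrosine kinase signalling, had 0 counts in these purified libraries and 280 in tumors, and was at least 26.7-fold lower by a floor of 3 counts over the purified group.

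Of 31 other heat shock and chaperone genes, 12 were higher and 7 lower in purified cells, with a median of 0.03. Hsp90ab1, the constitutive cytosolic Hsp90, was 1.97-fold higher (log2 0.98, SE 0.06, adjusted p = 9.67e-13 in edgeR), and its co-chaperone Stip1 was 1.49-fold higher. The small chaperone Hspb8 was 1.44-fold higher. Chordc1, an Hsp90 partner, was lower at log2 −0.50, as was Hspa1l at −0.67, the Hsp70 relative expressed chiefly in testis. Hspb1, which encodes Hsp27, had 4 counts in purified cells and 305 in tumors. Of 25 upstream kinases and factors, 12 were higher and 6 lower: Map2k2 and Mapk3 of the ERK cascade stood at log2 0.77 and 0.55, and Crem, Creb1 and Mapk8 at −1.21, −0.38 and −0.48.

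The lines did not give the same picture. In the knockout line, 7 members were higher in purified cells than in tumors, Fosb at log2 1.95, Hspa1b at 1.72, Dusp1 at 0.99, Jun at 0.78, Egr1 at 0.41, Jund at 0.29 and Junb at 0.26, and Hspa1a was lower at −3.43, where 25.3% of 14569 genes were called higher and 31.1% lower. Hspa1a in that line stood at −2.48 without purified replicate 1 and at −6.54 without replicate 2, Fosb at 1.16 without replicate 2, and Hspa1b at 2.35 without replicate 1 and 0.65 without replicate 2. In control line 1, Jun at 0.84 and Fosb at 0.40 were higher, and Fos at −0.71, Dusp1 at −0.46 and Hspa1a at −4.23 were lower, where 23.7% of 14331 genes were called higher and 30.2% lower. The difference between the lines was tested as an interaction, which called 5.27% of 15033 genes higher and 4.82% lower. Dusp1 (1.43, SE 0.22, adjusted p = 0.000309), Fosb (1.53, SE 0.35, adjusted p = 0.00923) and Egr1 (0.85, SE 0.23, adjusted p = 0.0265) were called higher by edgeR in the knockout line relative to control line 1. Jun did not differ past the threshold (−0.07, SE 0.17, adjusted p = 0.833).

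Those calls leaned on single purified libraries to different degrees. Dusp1 kept its call in every alternative, with log2 values from 1.29 to 1.59. Fosb lost it without purified knockout replicate 2 (0.74, adjusted p = 0.156) or purified control line 1 replicate 1 (1.32, adjusted p = 0.0758). Egr1 lost it without any 1 of the 4 purified libraries, with adjusted p between 0.0705 and 0.125, and with no filter on low counts (adjusted p = 0.0513). Fos, not called at 1.07 (adjusted p = 0.0689), was called without purified knockout replicate 1 (1.61, adjusted p = 0.00363), without control tumor replicate 5 (1.14, adjusted p = 0.0420) and by DESeq2 (1.06, adjusted p = 0.0297), and Junb at 0.55 without that tumor (adjusted p = 0.0230). Within the knockout line itself, leaving out purified replicate 2 cut the members called higher to 3, since Junb, Jund, Egr1 and Hspa1b no longer passed, and without purified replicate 1 Fos was called higher at 0.92 (adjusted p = 0.00154). Hspa1b also lost its call in that line without knockout tumor replicate 2, 3, 4 or 5 (adjusted p between 0.0554 and 0.0596), and Junb without purified replicate 1 or tumor replicate 1, 2, 3, 5 or 7 (adjusted p between 0.0561 and 0.167). Junb was also not called there by DESeq2, with DESeq2 size factors or in a single fit of all libraries (adjusted p of 0.0655 to 0.0657), Hspa1b not with the pair summed or without a filter (adjusted p = 0.0800 and 0.0534), and Egr1 not in the single fit (adjusted p = 0.0759). In control line 1, Fos was not called without purified replicate 1 (−0.42, adjusted p = 0.224), Fosb not without replicate 2 (0.13, adjusted p = 0.635) and Dusp1 not without either (adjusted p = 0.244 and 0.0629). In that line Fos and Fosb were also not called in the single fit (adjusted p = 0.0521 and 0.243), nor Dusp1 without a filter (adjusted p = 0.0518), while Egr1, at −0.45 (adjusted p = 0.0535), was called lower by DESeq2 (adjusted p = 0.0183) and without control tumor replicate 2 or 5 (adjusted p = 0.0437 and 0.00140), and Junb without tumor replicate 5 (−0.29, adjusted p = 0.0223).

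**Figure D3:**
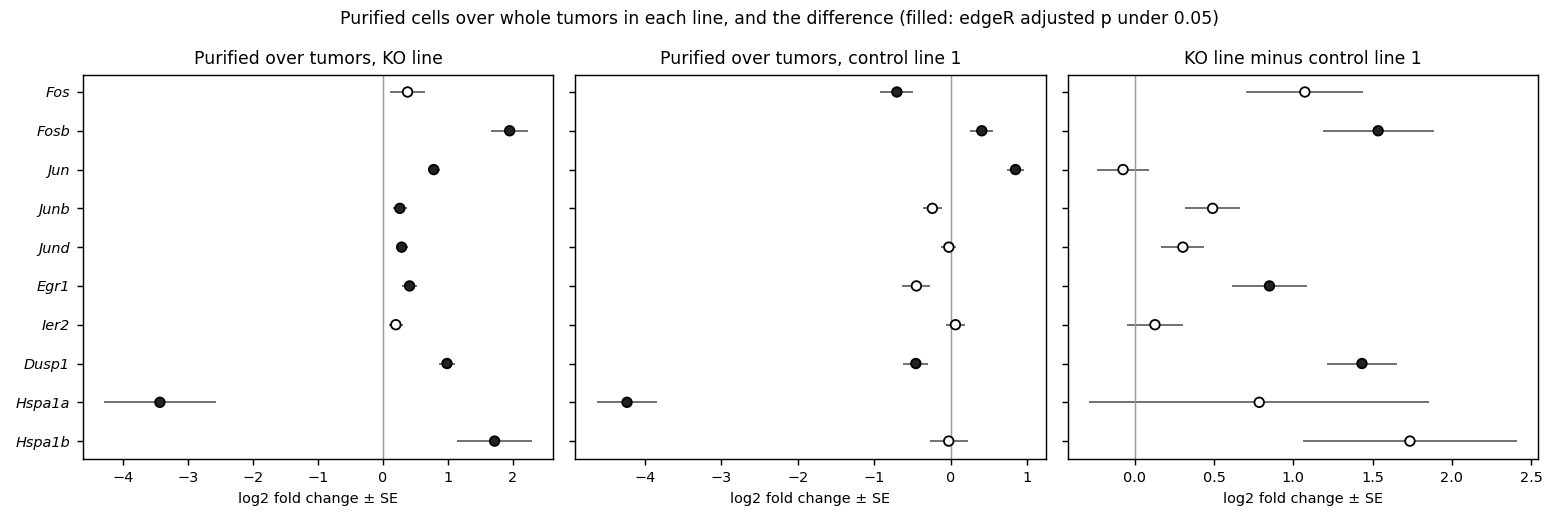
Log2 fold change with SE of purified cells over whole tumors in the knockout line and in control line 1, and the difference between them, with filled points where the edgeR adjusted p is under 0.05. Fosb, Egr1 and Dusp1 are filled in the panel of the difference, where Jun lies at −0.07.

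The interaction between the lines called 5.27% of all genes tested higher and 4.82% lower. Of the other immediate early genes, 7 of 34 were higher in that interaction and 0 lower. Of the other lists, 3 of 15 feedback genes, 6 of 31 chaperones and 1 of 25 upstream genes were higher and 0 lower. Examples chosen after their values were seen were Zfp36, which destabilises cytokine mRNAs, at 1.16 (adjusted p = 0.000266 in edgeR), Hsph1, an Hsp70 exchange factor, at 1.33 and Dnajb1, an Hsp40 co-chaperone, at 1.21. Summed skeletal muscle markers were 1.88 and 25.7 CPM in purified knockout cells, against 0.182 and 0.265 CPM in those of control line 1. In culture they were 3.15 CPM in the knockout, against 0.11 and 0.155 CPM in control lines 1 and 2. Between the same purified groups summed macrophage markers were 5.78 and 6.44 CPM, against 15.5 and 21.8 CPM. Summed fibroblast markers were 257 and 281 CPM, against 623 and 928 CPM. The part of these markers in the difference between lines was not tested.

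Against culture, the members other than Jun and the Hsp70 genes fell in purified cells. This comparison holds 6 purified libraries and 3 cultured ones, 1 per line, with the line as a term. Of the members, 7 were called lower and 2 higher, where 21.4% of 12651 genes were called lower and 22.1% higher. Fos had 107.0, 167.5 and 78.5 CPM in cultured knockout, control line 1 and control line 2 cells, and its highest purified library had 30.5 CPM. It was 8.33-fold lower in purified cells (log2 −3.06, SE 0.50, adjusted p = 0.00371 in edgeR), and stood at −2.32 without the cultured library of control line 1. Fosb was 6.2-fold lower, with 12.7 to 76.1 CPM in purified cells, against 102.3 to 217.7 CPM in culture, a log2 difference of −2.63 that was −1.98 without the same cultured library. Neither gene had a purified library that reached the lowest cultured one.

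Egr1, Dusp1 and Ier2 were lower by 3.13-fold, 2.83-fold and 2.40-fold in purified cells. Egr1 ranged over 198.6 to 451.7 CPM in purified cells, against 767.0, 765.8 and 1395 CPM in cultured knockout, control line 1 and control line 2 cells. Dusp1 ranged over 20.8 to 59.2 CPM, against 89.6 to 121.3 CPM, and Ier2 over 31.5 to 50.2 CPM, against 89.0 to 116.5 CPM. The groups did not overlap in any of these 3 genes, and how often this holds over all genes was not counted. Jund was 1.55-fold lower and Junb 1.23-fold lower, and Junb was not called without the cultured library of control line 1 (−0.22, adjusted p = 0.0779).

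Jun went the other way, 1.67-fold higher in purified cells (log2 0.74, SE 0.10, adjusted p = 6.81e-05 in edgeR). Purified cells of control line 2 had 224.0 and 272.4 CPM of Jun, against 138.7 CPM in culture, so that each line stood higher in purified cells. Hspa1b was 15.8-fold higher (log2 3.98, SE 0.54, adjusted p = 0.00165), with 27.1 to 88.6 CPM in purified cells, against 2.07, 4.61 and 2.58 CPM in cultured knockout, control line 1 and control line 2 cells. Hspa1a had 3 to 4 counts in each cultured library, and its difference of 1.76 did not pass (adjusted p = 0.0954), although it did without purified knockout replicate 1 (2.04, adjusted p = 0.0310).

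Whole tumors were also compared with culture. Tumors and purified cells share the cultured libraries of the knockout line and control line 1 here, so the values are given side by side. Of the members, 7 were lower in tumors and 2 higher, where 30.5% of 15010 genes were called lower and 37.7% higher. The log2 difference of tumors over culture was −3.35 for Fos, −4.02 for Fosb, −2.0 for Dusp1, −1.48 for Egr1, −1.35 for Ier2, −0.79 for Jund and −0.37 for Junb, against a median of 0.12 over all genes. Hspa1a was higher by 5.26 (SE 0.71, adjusted p = 3.09e-06 in edgeR) and Hspa1b by 3.16 (SE 0.57, adjusted p = 0.000151), from 7 counts of Hspa1a in the cultured libraries of this fit. Jun, at −0.17 (adjusted p = 0.167), did not pass. Without the cultured library of control line 1, Fos stood at −2.74. Junb was not called without the cultured knockout library (−0.28, adjusted p = 0.171).

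The related lists were also counted in purified cells against culture, where 22.1% of all genes were called higher and 21.4% lower. Of 31 other immediate early genes tested, 8 were higher and 10 lower, of 14 feedback genes 4 were higher and 8 lower, and of 30 chaperones 3 were higher and 16 lower. Among examples chosen after their values were seen, Cyr61, a matricellular target of serum response factor and YAP, was at log2 −2.87 and the nuclear receptor Nr4a1 at −1.38, while the NF-kappaB inhibitor Nfkbia was at 1.48 and the cytokine feedback gene Socs3 at 1.64. The chaperones Hspd1, Hspa9 and Hspa4 were lower at −0.58, −0.65 and −0.56, in the same comparison in which Hspb1 was not tested and Hspa1b was higher. Hsf1, the heat shock factor itself, was lower at −0.25.

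In knockout tumors against control tumors, Fos and Ier2 were higher and both Hsp70 genes were lower, where 18.1% of 13752 genes were called higher and 19% lower, so 2 members higher and 2 lower is a share near that of all genes. Mitochondrial transcripts took 4.33% to 5.28% of the counts in knockout tumors and 2.56% to 4.08% in control tumors, without overlap, and summed leukocyte markers averaged 338 CPM in knockout tumors and 215 CPM in control tumors, and their part in these differences was not tested. Fos averaged 15.99 ± 2.4 CPM in knockout tumors and 11.98 ± 2.2 CPM in control tumors (SD, n = 7 and 8), with groups that overlapped, a log2 difference of 0.43 (SE 0.12) and an edgeR adjusted p = 0.00779. Ier2 averaged 41.1 ± 4.5 CPM in knockout tumors and 33.4 ± 4.2 CPM in control tumors, a difference of 0.31 (SE 0.08, adjusted p = 0.00611 in edgeR). The remaining immediate early members lay between −0.18 for Dusp1 and 0.26 for Fosb. Fos lost its call in a single fit of all 24 libraries (adjusted p = 0.0624). Fosb passed without knockout tumor replicate 1 or 6 (adjusted p = 0.0436 and 0.0399), Dusp1 was lower without control tumor replicate 5 (adjusted p = 0.0461) and Jun was lower without control tumor replicate 8 (adjusted p = 0.0410).

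Hspa1b averaged 17.2 ± 8.9 CPM in knockout tumors and 43.8 ± 11.1 CPM in control tumors, and was 2.52-fold lower (log2 −1.34, SE 0.29, adjusted p = 0.00321 in edgeR). The highest knockout tumor, at 33.5 CPM, passed the lowest control tumor, at 25.4 CPM. Hspa1a averaged 4.83 ± 2.44 CPM in knockout tumors and 9.96 ± 2.87 CPM in control tumors, 2.04-fold lower (log2 −1.03, SE 0.28, adjusted p = 0.00912). The summed pair was lower by −1.27 (adjusted p = 0.00419), so the call does not rest on how reads were divided between the copies. In these tumors summed T cell markers averaged 94.1 CPM in the knockout and 38.8 CPM in the control, and summed fibroblast markers 362 and 573 CPM. In purified cells of the knockout line and control line 1 the fibroblast markers averaged 269 and 776 CPM. The part of either list in the Hsp70 difference was not tested.

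Of all genes tested in the tumors, 18.1% were called higher in the knockout and 19% lower. Among related genes, 7 of 34 other immediate early genes were higher in the knockout and 9 lower. The same counts were 1 and 4 of 15 feedback genes, 2 and 6 of 31 chaperones, and 1 and 9 of 25 upstream genes. Ctgf, a matricellular protein, was 2.08-fold higher, Zfp36 1.32-fold higher, and Maff, a small MAF factor, lower at log2 −1.05. Dusp4 and Dusp10 were lower at −0.84 and −0.67 and Dusp2 higher at 0.68. The Hsp110 relative Hspa4l and the Hsp40 gene Dnajb4 were lower at −0.67 and −0.64, and Hspe1, the mitochondrial chaperonin partner, was higher at 0.45. Elk1, a ternary complex factor that acts at the Fos and Egr1 promoters, was lower at −0.81 (SE 0.08, adjusted p = 3.47e-07 in edgeR).

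In purified cells 0 members were called between knockout and control in edgeR, where 2.26% of 12476 genes were called higher and 2.29% lower. Fosb at 1.51, Dusp1 at 0.74 and Jund at 0.61 had an unadjusted p under 0.05, and the DESeq2 test called 0 members. Fosb averaged 53.3 ± 32.3 CPM in the knockout (SD, n = 2), against 12.7 and 18.2 CPM in control line 1 and 15.2 and 28.9 CPM in control line 2. The lowest knockout library, at 30.5 CPM, lay above every control one. A single fit of all 24 libraries called 4 members higher, Fos, Fosb, Jund and Dusp1. That fit called more genes of all kinds, 1283 higher and 1194 lower, against 282 and 286 in the main fit. Without control line 2 replicate 2, Fosb and Egr1 were called higher (1.80 and 0.82, adjusted p = 0.0478 and 0.0277), and Hspa1b was called higher without knockout replicate 1 (1.02, adjusted p = 0.0254). In the authors' deposited table for purified cells, which runs control over knockout, Fosb stood at −1.47 with an adjusted p of 0.0490 and Dusp1 at −0.75 with 0.0543.

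The control lines also differed from each other in purified cells. In control line 2 against control line 1, Fos (log2 1.08, SE 0.23), Dusp1 (0.89, SE 0.14) and Junb (0.45, SE 0.11) were higher and Jund (−0.70, SE 0.12) and Jun (−0.41, SE 0.12) lower, with edgeR adjusted p between 0.00394 and 0.0479, where 5.08% of 12135 genes were called higher and 7.35% lower. Dusp1 had 38.8 and 44.8 CPM in control line 2, against 20.8 and 24.5 CPM in control line 1, and Jund 62.7 and 75.3 CPM, against 107.4 and 118.0 CPM. Neither gene overlapped between the lines, with only 2 libraries on each side. Jun was not called without control line 1 replicate 1 or 2 or control line 2 replicate 1 (adjusted p between 0.0832 and 0.189), in a single fit of all libraries (adjusted p = 0.0761) or with the replicate block as labelled (adjusted p = 0.0612), nor Junb without control line 1 replicate 1 or 2 (adjusted p = 0.135 and 0.0656). Egr1, at 0.83 with adjusted p = 0.0723, passed without any 1 of the 4 libraries (adjusted p up to 0.0224), without a filter on low counts, in a single fit of all libraries and with the replicate block, numbers as labelled or crossed. Fosb, not called at 0.52, passed without control line 1 replicate 2 or control line 2 replicate 1 (adjusted p = 0.0386 and 0.0253) and without a filter (adjusted p = 0.0290). In culture, with 1 knockout library, 0 of the 9 members tested, all but Hspa1a, were called between genotypes by edgeR or by DESeq2 and 0 had an unadjusted p under 0.05, and 0 of 12175 genes were called by edgeR, with 659 at an unadjusted p under 0.05 and 49 called by DESeq2. In the same edgeR fit Sun1, the knocked-out gene, was at −1.79 and was itself not called, so this fit cannot decide whether members differ in culture. The authors' deposited table for cultured cells runs control over knockout. There Sun1 was called, at 1.70, and no listed member was, with values from −0.29 for Dusp1 to 0.51 for Egr1.

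**Figure D4:**
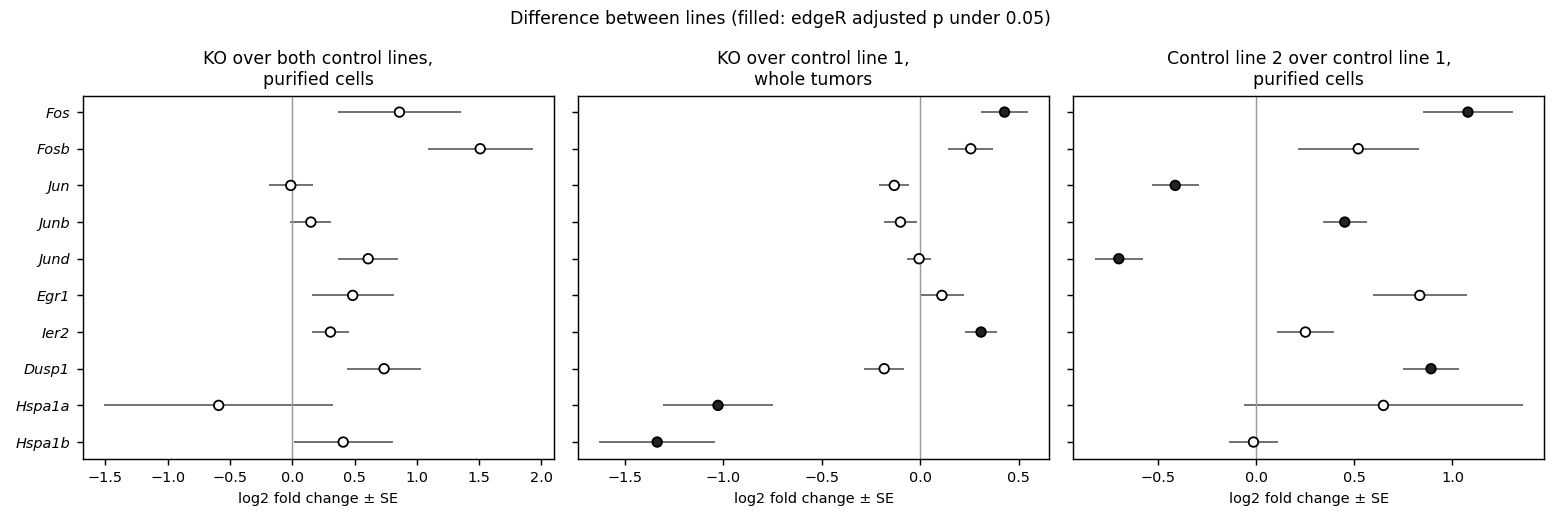
Log2 fold change with SE of knockout over both control lines in purified cells, of knockout over control line 1 in tumors, and of control line 2 over control line 1 in purified cells, with filled points where the edgeR adjusted p is under 0.05. In tumors 4 members are filled, against 0 in the knockout comparison of purified cells and 5 between the control lines.

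The Hsp70 pair was further described by its division. Hspa1a made up 0.169% to 2.74% of the counts of the pair in the 6 purified libraries, against 15.7% to 29.4% in the 15 tumors. It made up 6.67%, 4.55% and 5.66% in cultured knockout, control line 1 and control line 2 cells, from 45 to 88 counts of the pair, with 95% Wilson intervals that reach from 1.78% to 17.9% and cover counting error only. Within the lines that have both settings the share was 19.4 percentage points lower in purified cells than in tumors (two-sided exact permutation test within lines, p = 0.000617, the smallest that 1620 arrangements can give). Between genotypes the share averaged 22.1% ± 3.7 in knockout tumors and 18.5% ± 1.9 in control tumors (SD, n = 7 and 8), a difference of 3.58 points (two-sided exact permutation test, p = 0.0205). These 2 tests were chosen after the shares were seen, and the shares are those of the authors' read assignment between copies that share part of their transcript sequence.

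**Figure D5:**
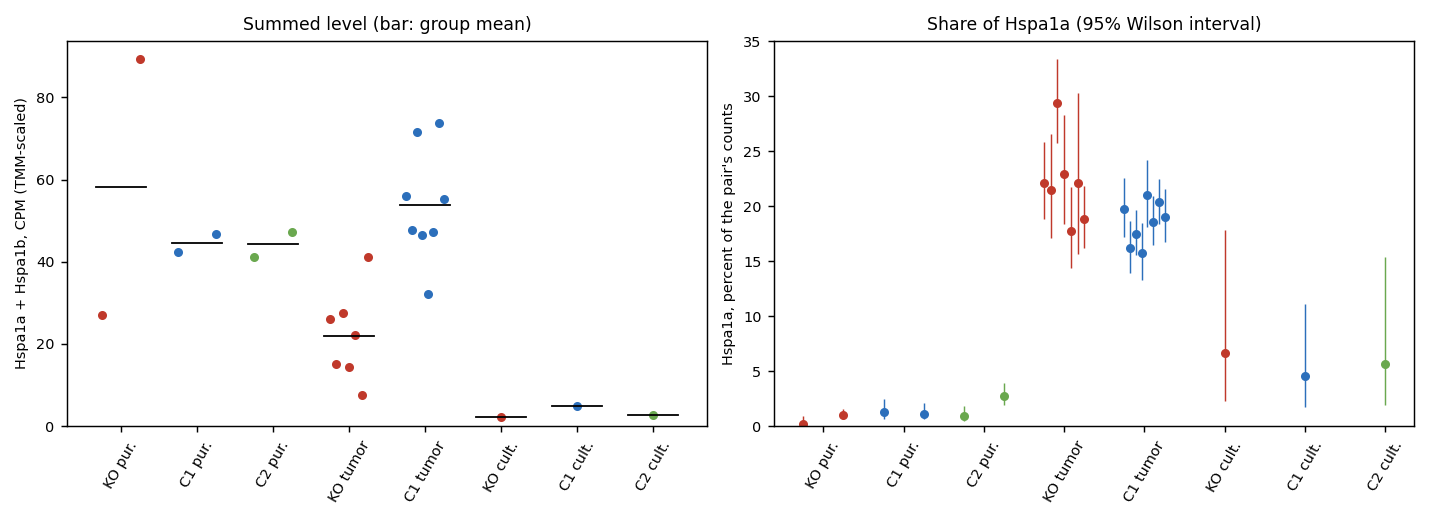
Summed CPM of Hspa1a and Hspa1b in every library with a bar at the group mean, on the left, and the share of Hspa1a in the counts of the pair with its 95% Wilson interval, on the right. Tumors lie between 15.7% and 29.4% and purified cells between 0.169% and 2.74%.

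Per length, in the authors' TPM, Egr1 was the highest member in culture, at 340, 352 and 663 TPM in the knockout, control line 1 and control line 2. In purified cells Egr1, Junb and Jun shared the top levels, with means of 171, 145 and 121 TPM in the knockout. Their means were 85.7, 108 and 136 TPM in control line 1, and 145, 138 and 95.9 TPM in control line 2. By these means Jun led in control line 1, and Egr1 in the knockout and in control line 2. In purified control line 2 replicate 1, however, Junb stood above Egr1, at 121 against 98.2 TPM. Fos stood at 14.7 ± 9.3 TPM in the purified knockout and 5.0 ± 1.4 TPM in purified control line 1 (SD, n = 2 each). Across groups the order of Fos levels in CPM ran from cultured control line 1, cultured knockout and cultured control line 2 to purified knockout, knockout tumors, purified control line 2, control tumors and purified control line 1, and the last 5 of these groups each overlapped their neighbour in that order.

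Among libraries of the same group, the members varied together only in part. Log2 CPM was centred on the group means over the 24 libraries. Each cultured group has 1 library, which centring sets to 0, and each purified group has 2, which become equal and opposite. The correlation was 0.88 for Hspa1a with Hspa1b, 0.80 for Egr1 with Dusp1, 0.71 for Egr1 with Junb and −0.21 for Fos with Ier2. These values are descriptions over libraries that share depth and composition. Among 11611 genes, those whose pattern was most like Fos by this measure were Enc1 at 0.77, Actn3 at 0.76, Btbd10, Pfkfb3 and Agtpbp1, and those most like Hspa1a after Hspa1b were Apobr at 0.86, Prkab2, Neurl4 and Zfp335. Within the tumors of each genotype, 18 relations of Fos with another member were tested, and 0 passed an unadjusted permutation p of 0.05 for Pearson or for Spearman. The Pearson r lay between −0.32 and 0.69 and the smallest adjusted p was 0.933 over n = 7 and 8 tumors.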

How the data were processed

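RNA was extracted with TRIZOL, enriched for mRNA and sequenced as paired reads on an Illumina HiSeq instrument, per the labels' protocols. FastQC, STAR, RSEM and DESeq2 on mm10 are named in the submitters' processing notes, but which versions were run is not given in those sources. The authors deposited RSEM tables with an expected count per gene, the estimated number of reads without scaling between libraries, and TPM, per the file headers. The TPM values deposited by the authors were used only to describe levels per length. Each genotype comparison also has a DESeq2 result deposited by the authors, holding per gene the average normalized signal, a log2 fold change with its error, a Wald score and a p-value, per the file headers. Its direction, control over knockout, was read from Sun1.

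Expected counts were rounded and fitted per comparison in edgeR 4.0.16 under R 4.3.3. The steps were filterByExpr with a minimum count of 10 and a minimum total of 15, TMM scaling, the robust quasi-likelihood F test and Benjamini-Hochberg adjustment over all genes tested at 0.05. The SE was taken by dividing the absolute log2 fold change by the root of its F statistic, and tests were two-sided. CPM uses TMM over the 24 libraries, with a prior count of 2 for log2 CPM and a pseudocount of 0.1 CPM in the correlations of Fos. All libraries were mapped from titles, and 0 columns of values were left unmapped. The counting step's use of strand is not given in the sources used here. Within a group, any pair of libraries gave a chi-square of at least 7.38 per gene, so none was treated as a repeat of another. The cultured genotype fit has 1 knockout library, assumed to vary like the controls. The edgeR fits were tested on simulated data. DESeq2 1.42.0, other scaling, no filter, a single fit of all 24 libraries, summed Hsp70 copies, replicate blocks and leaving out each library were alternatives.

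The members, gene lists and markers were chosen with earlier results of these data known. Named genes are the 10 members, the called list genes with the smallest p in each direction (3 for purified cells against tumors, 2 for knockout against control tumors) and the 5 genes most like Fos and Hspa1a by centred correlation with a mean of at least 1 CPM. One gene that this rule names is not reported here. Others were chosen after their values were seen.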

Additional observations from a re-analysis of the deposited data

Results flagged for a closer look

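The difference between the lines in purified cells against whole tumors was itself past the threshold for 3 members. It was 1.53 on the log2 scale for Fosb, 1.43 for Dusp1 and 0.85 for Egr1, each higher in the knockout line than in control line 1. Of 15033 genes tested, 5.27% were called higher and 4.82% lower. Dusp1 kept its call in every alternative, while Fosb and Egr1 each lost it when single purified libraries were left out. The control line 2 has purified cells and no tumors here, so the same difference could not be computed for it, but its purified cells had 38.8 and 44.8 CPM of Dusp1, against 20.8 and 24.5 CPM in purified cells of control line 1. Egr1 had 259.6 and 451.7 CPM in purified cells of control line 2, against 202.1 and 198.6 CPM in line 1. Fosb had 15.2 and 28.9 CPM in line 2, against 12.7 and 18.2 CPM in line 1, which overlapped.

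Junb had 114.6 CPM in knockout tumor replicate 6, below the other knockout tumors by a gap that exceeds the critical value for 7 samples. It was 1 of 20 groups of tumors examined in this way, and chance alone gives about 1 in 20.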

How the results depend on the processing

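Directions and calls held in most of the 162 alternative fits, 108 of which left out 1 library, with the exceptions given here and beside the results in the report, and the cause was not tested. Higher purified Jun and lower Hspa1a against tumors, and lower Fos, Fosb, Egr1, Ier2, Dusp1 and Jund against culture, kept their calls in every alternative. In a single fit of all 24 libraries, Egr1 in purified cells against tumors turned to −0.018, the members called higher were 1 in control line 1 and 1 in knockout tumors, 4 members and 2477 genes were called between genotypes in purified cells, 654 genes in culture, and 1 member was lower between the control lines. Without a filter on low counts, Jund and Hspa1b in control line 1 turned to 0.012 and 0.0096, 908 genes were called between genotypes in purified cells and 95 in culture, and 5 members higher and 2267 genes between the control lines. DESeq2 called 1139 genes between genotypes in purified cells and 49 in culture, against 568 and 0 in edgeR. The median over all genes for tumors against culture was 0.12, and 0.57 with no filter. Replicate numbers did not pair the libraries: same-numbered tumors correlated at −0.21 to 0.33, and 0 of 7 correlated best with their own number. With the replicate block, 1 member (Fosb) and 303 genes were called between genotypes in purified cells, and Hspa1b in purified cells against tumors lost its call (adjusted p = 0.177), while Jun in knockout against control tumors was called lower (−0.19, adjusted p = 0.0209). Between the control lines, chosen after seeing the data, the block with numbers as labelled left 1 member lower and 1285 genes, and with numbers crossed 2 and 2429.

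Leaving out 1 library at a time gave these ranges. Purified cells against tumors over both lines had 2 to 5 members higher and 1 to 2 lower, with Fos from −0.61 to 0.15, Junb from −0.053 to 0.12 and Egr1 from −0.12 to 0.17. The knockout line had 3 to 7 higher, with Fos from −0.43 to 0.92. Control line 1 had 1 to 2 higher and 1 to 5 lower, with Jund from −0.090 to 0.040, Ier2 from −0.12 to 0.23 and Hspa1b from −0.11 to 0.044. The difference between lines had 1 to 5 members higher and 546 to 1705 genes, with Jun from −0.24 to 0.097, Ier2 from −0.042 to 0.33 and Hspa1a from −2.33 to 1.74. Knockout against control had Jund from −0.040 to 0.011 in tumors. In purified cells it had 0 to 2 members higher and 72 to 540 genes, with Jun from −0.18 to 0.15, Hspa1a from −3.72 to 0.34 and Hspa1b from −0.67 to 1.02. The lowest gene counts, 546 and 72, came without purified knockout replicate 2, and without replicate 1 they were 842 and 108. Without replicate 1 or 2 of purified control line 1, the difference between lines had 743 or 624 genes. Control line 2 against line 1 had 3 to 5 members higher, 1 to 2 lower and 999 to 2319 genes, with Fosb from −0.014 to 0.91, Hspa1a from −0.52 to 1.26 and Hspa1b from −0.091 to 0.067. No library could be left out of the genotype comparison in culture. Hspa1a, with at most 28 counts in a cell library, is limited by depth there.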
